A study of Mus musculus with 6 samples.

Results

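A set of 10 RAS-ERK pathway genes was examined in cultured mouse skin cells grown in normal or high glucose: the PEA3 transcription factors Etv1, Etv4 and Etv5, the Sprouty genes Spry1, Spry2 and Spry4, the Spred genes Spred1 and Spred2, and the ERK phosphatase genes Dusp4 and Dusp6. They are 10 of the 55487 gene identifiers in the count table, and all 10 were among the 19015 genes that passed the filter on low counts. They were chosen by family and on the same contrast of high against normal glucose, so every change given for them, and every count of them past the threshold, is a description and supports nothing.

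The cells were primary cells of C57BL/6 mice, isolated from the skin of 4 to 6 animals aged 2 to 3 months with beads against CD31 and described in the labels as endothelial cells. One group of 3 samples was kept in medium with 5 mmol/L glucose (normal glucose) and the other group of 3 in 20 mmol/L glucose (high glucose), each for 48 hours, before polyA RNA was sequenced in bulk. The comparison asks how transcript levels differ between these glucose concentrations. The labels do not tie the 3 samples of a group to separate isolations or animals, whereas the study's captions count them as mice although skin was pooled for an isolation. The p-values measure only the spread between these samples, which may be partly technical. No mannitol or other osmotic control is among the samples used here, and glucose and the osmolarity of the medium cannot be told apart.

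RAS-ERK signalling passes from receptor tyrosine kinases through RAS and a chain of kinases to the ERK kinases, which enter the nucleus and raise the transcription of a set of target genes. The PEA3 factors are ETS-family activators transcribed in response to this signal, above all downstream of fibroblast growth factor receptors, and they carry part of it to further genes. Sprouty and Spred proteins act on the steps around RAS, while Dusp6 removes phosphate from ERK in the cytoplasm and Dusp4 does so in the nucleus, so that these targets also dampen the pathway that induces them.

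The library totals ran from 120192466 to 146881356 counts, so that even the lowest count of any of the 10 genes in a sample, 221 for Etv4, was well above a floor of 3 counts. The 10 most abundant genes took 7.86% to 8.18% of the counts in normal glucose and 11.4% to 11.6% in high glucose. Levels are therefore given as TMM-normalized CPM, which are counts brought to a common library size with allowance for such a shift in composition. Cell type markers did not match the endothelial label well. Of 21 endothelial markers 13 passed the filter, Pecam1, which encodes CD31 itself, stood at 0.128 ± 0.0378 CPM in normal and 0.103 ± 0.0359 CPM in high glucose (SD, n = 3), and Sox17 was at 0 counts in every sample. Eng was the most abundant of them, with 155 CPM in normal and 140 CPM in high glucose, and the summed level of all 21 was 221 to 249 CPM in normal and 201 to 207 CPM in high glucose. Of the 13 tested, 3 were called lower, among them Cdh5 (1.8 to 0.876 CPM), and 3 were called higher. Fibroblast markers were far more abundant, with a summed level of 40600 to 44000 CPM in normal and 73800 to 78500 CPM in high glucose, and 11 of the 14 were called higher and 2 lower. Col3a1 led this list at 12400 and 32500 CPM and Fap was the lowest of it. Smooth muscle and pericyte markers summed to 634 to 709 and 533 to 560 CPM (Acta2 highest, Kcnj8 lowest), and adipocyte markers to 240 to 292 and 279 to 318 CPM (Fabp4 highest, Lep lowest). Markers of Schwann cells and melanocytes summed to 34.9 to 36.1 and 31.7 to 32.9 CPM (Mitf highest, Tyr lowest). Those of macrophages and leukocytes summed to 17.4 to 19.5 and 26.8 to 27.7 CPM (Cd14 highest, Cd3e lowest). Of these, 4 were tested: Cd14 was called higher (9.47 to 21.1 CPM) and 2 were called lower, among them Csf1r (5.62 to 3.38 CPM). Their median log2 fold change was -0.29, so the higher sum reflects Cd14. Markers of skeletal muscle cells summed to 4.86 to 6.35 and 1.89 to 1.97 CPM (Acta1 highest, Myf5 lowest). Keratinocyte markers summed to 4.26 to 5.16 and 4.75 to 5.12 CPM (Trp63 highest, Krt1 lowest) and mast cell markers to at most 0.117 CPM (Kit highest, Tpsb2 lowest). In bulk RNA, fewer cells of a type and less RNA per cell cannot be told apart, and the part of such shifts in the values below was not tested.

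Promoters of some of the members are shown first, as the stretch of 250 bases before the transcription start. RefSeq windows on GRCm38.p6 were matched by symbol for 7 of the 10 genes (Etv1, Etv5, Spry1, Spry2, Spred1, Spred2 and Dusp6) and gave 9 windows. Dusp6, Spry1, Spry2 and Spred1 are printed because they span the range from a large to a small fall in RNA. Letters run 5′ to 3′ on the gene's strand, and capitals mark AGGAAG, a recognition motif of PEA3 factors, on either strand.

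Dusp6 (chr10:99262981-99263230, plus strand): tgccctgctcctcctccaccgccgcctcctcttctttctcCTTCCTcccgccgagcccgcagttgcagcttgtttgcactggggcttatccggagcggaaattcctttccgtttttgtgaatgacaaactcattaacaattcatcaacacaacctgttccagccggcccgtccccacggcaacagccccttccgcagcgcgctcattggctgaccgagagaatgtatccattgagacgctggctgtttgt

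Spry1 (chr3:37639697-37639946, plus strand): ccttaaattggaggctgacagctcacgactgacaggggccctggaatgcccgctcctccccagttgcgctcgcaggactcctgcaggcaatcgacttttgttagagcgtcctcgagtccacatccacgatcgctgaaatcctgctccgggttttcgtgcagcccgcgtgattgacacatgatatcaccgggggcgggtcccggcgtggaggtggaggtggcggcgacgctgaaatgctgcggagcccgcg

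Spry2 (chr14:105896820-105897069, minus strand): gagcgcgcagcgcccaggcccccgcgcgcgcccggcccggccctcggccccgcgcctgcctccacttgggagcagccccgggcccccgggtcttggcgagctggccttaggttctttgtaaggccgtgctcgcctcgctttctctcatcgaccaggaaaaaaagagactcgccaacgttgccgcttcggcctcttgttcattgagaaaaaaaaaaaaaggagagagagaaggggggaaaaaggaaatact

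Spred1 (chr2:117120821-117121070, plus strand): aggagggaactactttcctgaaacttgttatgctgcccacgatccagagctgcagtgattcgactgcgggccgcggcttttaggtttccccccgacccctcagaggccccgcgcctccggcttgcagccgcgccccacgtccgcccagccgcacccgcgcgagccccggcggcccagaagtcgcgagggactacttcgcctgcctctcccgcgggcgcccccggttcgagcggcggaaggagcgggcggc

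The window of Dusp6 held 1 match to AGGAAG, on the opposite strand, beginning 210 bases before the start. The windows of Spry1, Spry2 and Spred1 held none. Over all members AGGAAG was found on either strand in 3 of 9 windows (Dusp6, Etv1 and Spred2), against 29.5% of 32851 windows of the same length. Each of CCGGAA, an ETS core, TGANTCA, the AP-1 motif, and TGACGTCA, the cyclic AMP response element, was in 0 of the 9 windows, against 12.0%, 6.75% and 1.55% of all windows. The ETS motif and AGGAAG share their GGAA core but cannot lie on the same one. The share of G and C was 56.4% in the window of Dusp6, 62.4% in Spry1, 62.4% in Spry2 and 70.8% in Spred1, against a median of 52.4% over all windows. It was 56.0% in Spred2, 71.2% and 62.0% in the windows of Etv5, and below that median, at 46.4% and 44.4%, in those of Etv1.

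Across the 10 genes, 9 were lower in high glucose at an adjusted P under 0.05 in the edgeR quasi-likelihood fit and 0 were higher (0 also at an unadjusted P under 0.05 and in DESeq2). Of all genes tested, 14.5% were called lower (2757 genes) and 16.9% higher (3212 genes), and since the members were chosen on this contrast nothing is read from their count. The same 9 genes had all 3 high glucose samples below all 3 normal glucose samples, which held for 21.3% of all genes in that direction and for 25.1% in the other. Spred2 was the gene whose groups overlapped. The median log2 fold change (high minus normal glucose) was -0.69 over the 10 genes and 0.0062 over all genes tested. Counts of calls depend on scaling: scaled by library size alone, 4884 genes were called lower and 1819 higher, and with upper quartile scaling 3407 and 2622. Without high glucose replicate 1, 2097 genes were called lower and 2010 higher, and without high glucose replicate 3, 2048 and 1988.

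**Figure D1:**
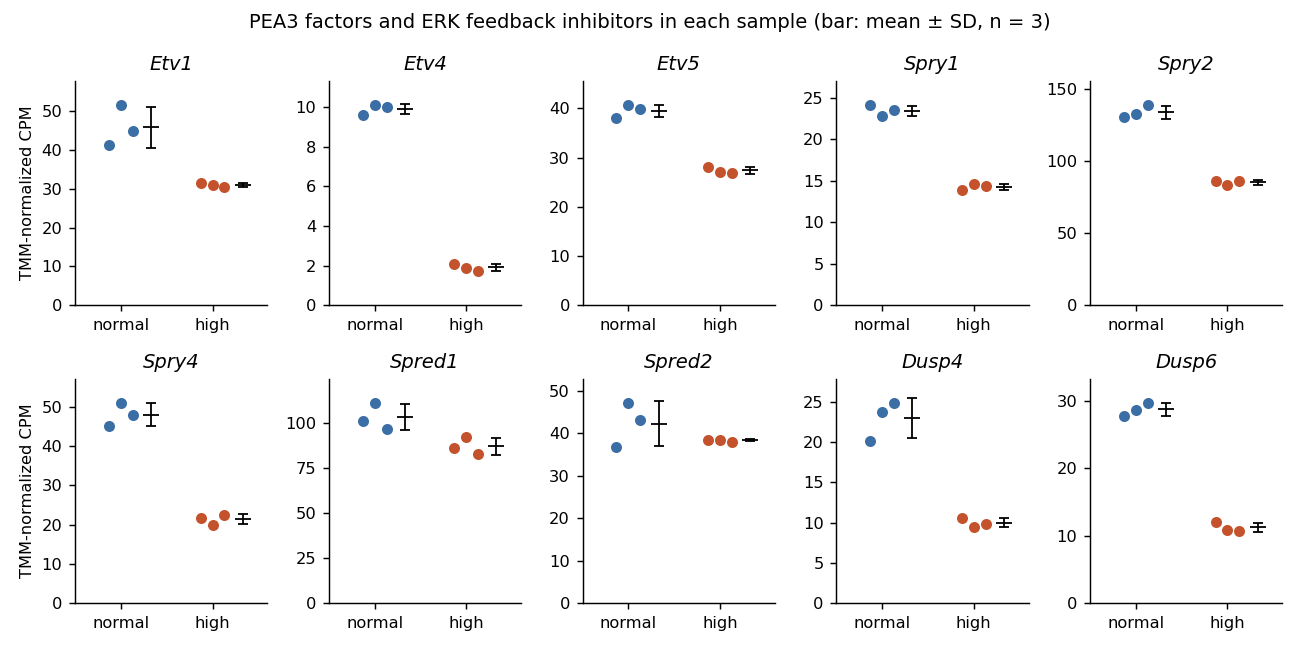
TMM-normalized CPM (vertical axes, each from 0) of the 10 genes in the 3 normal glucose samples (blue) and the 3 high glucose samples (red), with the mean and SD of each group as a black bar. The groups are apart in 9 panels and overlap for Spred2, and relative to the normal glucose level the gap is widest for Etv4, from 9.89 to 1.92 CPM.

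Among the PEA3 factors, Etv4 fell most. Etv4 (ENSMUSG00000017724, chr11:101769742-101785371, minus strand, GRCm38) had 1203, 1426 and 1281 counts in the normal glucose samples, or 9.61, 10.1 and 10.0 CPM. In high glucose it had 297, 221 and 236 counts, or 2.09, 1.90 and 1.75 CPM. The 6 values form 2 tight groups with nothing between them. The mean went from 9.89 ± 0.244 to 1.92 ± 0.172 CPM (SD, n = 3). That is a 5.16-fold lower level (log2 fold change -2.37, standard error 0.093). Only 47 of the 19015 genes tested had a more negative log2 fold change than Etv4.

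Etv5 and Etv1, its closest relatives, fell much less. Etv5 (ENSMUSG00000013089, chr16:22381309-22439719, minus strand) stood at 38.1, 40.7 and 39.9 CPM in normal glucose and at 28.2, 27.1 and 26.9 CPM in high glucose. Its groups did not overlap, and the mean changed by -30.7%, from 39.5 ± 1.31 to 27.4 ± 0.736 CPM (log2 fold change -0.53, standard error 0.052). Etv1 (ENSMUSG00000004151, chr12:38779380-38870484, plus strand) varied more between the normal glucose samples, at 41.3, 51.6 and 44.9 CPM, than between the high glucose samples, at 31.5, 31.0 and 30.6 CPM. All 3 high glucose samples lay below the lowest normal glucose sample. The mean of Etv1 changed by -32.5%, from 45.9 ± 5.26 to 31.0 ± 0.42 CPM (log2 fold change -0.57, standard error 0.076).

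Sprouty proteins are membrane-associated inhibitors that act downstream of receptor tyrosine kinases, and Spry4 fell most among the 3 genes. Spry4 (ENSMUSG00000024427, chr18:38586247-38601415, minus strand) had 45.1, 51.1 and 47.9 CPM in normal glucose against 21.8, 20.0 and 22.5 CPM in high glucose. The high glucose samples were all below the lowest normal glucose sample by a wide margin, and the mean changed by -55.3%, from 48.0 ± 2.96 to 21.4 ± 1.29 CPM (log2 fold change -1.16, standard error 0.066). Spry1 (ENSMUSG00000037211, chr3:37639947-37644598, plus strand) went from 24.1, 22.8 and 23.5 CPM to 13.9, 14.6 and 14.3 CPM. That is a change of -39.3% in the mean with no overlap (log2 fold change -0.72, standard error 0.055). Spry1 shares 710 bases of exon with Gm42922 on the opposite strand, a locus with only 24 to 43 counts in any sample, and whether counting used strand is not given in the sources used here. Spry2 (ENSMUSG00000022114, chr14:105891947-105896819, minus strand) was the most abundant Sprouty gene, with 131, 133 and 139 CPM in normal glucose and 86.1, 83.4 and 86.6 CPM in high glucose. Its mean changed by -36.4%, from 134 ± 4.44 to 85.4 ± 1.74 CPM (log2 fold change -0.65, standard error 0.050), and again no sample of one group reached the other.

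Spred proteins, which hold the RAS regulator neurofibromin at the membrane, are related to Sprouty through a shared C-terminal domain, and their genes showed the smallest differences. Spred1 (ENSMUSG00000027351, chr2:117121374-117182279, plus strand) had 101, 111 and 96.7 CPM in normal and 86.0, 92.0 and 82.6 CPM in high glucose. The highest of the high glucose samples lay just under the lowest of the normal glucose samples. The mean changed by -15.5%, from 103 ± 7.27 to 86.9 ± 4.77 CPM (log2 fold change -0.24, standard error 0.065). Without high glucose replicate 1 the log2 fold change was -0.25 and without high glucose replicate 3 it was -0.23, and in both fits Spred1 no longer passed the threshold. Spred2 (ENSMUSG00000045671, chr11:19924375-20024026, plus strand) had 36.7, 47.2 and 43.1 CPM in normal and 38.3, 38.5 and 38.0 CPM in high glucose. One normal glucose sample lay below all 3 high glucose samples and the other two above them. Spred2 did not pass the threshold, with means of 42.3 ± 5.31 and 38.3 ± 0.237 CPM (log2 fold change -0.15, standard error 0.081), but it did pass without normal glucose replicate 1 (-0.26) and with library size alone (-0.26).

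The ERK phosphatase genes had changes as large as that of Spry4 or larger. Dusp6 (ENSMUSG00000019960, chr10:99263231-99267489, plus strand) had 3481, 4052 and 3799 counts in the normal glucose samples, or 27.8, 28.6 and 29.7 CPM. The high glucose samples had 1696, 1261 and 1446 counts, or 12.0, 10.8 and 10.7 CPM. Every high glucose sample was far under the lowest normal glucose sample, and the mean changed by -61.0%, from 28.7 ± 0.939 to 11.2 ± 0.678 CPM (log2 fold change -1.36, standard error 0.063). Dusp4 (ENSMUSG00000031530, chr8:34807297-34819894, plus strand) went from 20.2, 23.8 and 24.9 CPM to 10.6, 9.48 and 9.82 CPM. Its groups also stood apart, and the mean changed by -56.6%, from 23.0 ± 2.47 to 9.97 ± 0.585 CPM (log2 fold change -1.20, standard error 0.086).

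**Figure D2:**
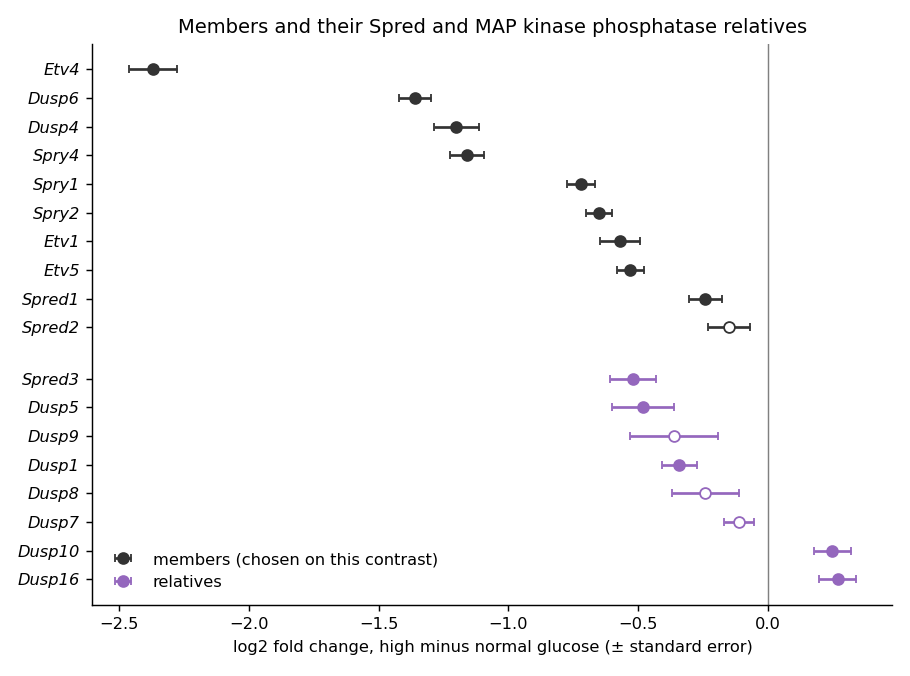
Log2 fold change, high minus normal glucose, with its standard error (horizontal axis) for the 10 members (black) and their tested Spred and MAP kinase phosphatase relatives (purple); filled circles passed an adjusted P of 0.05 and open circles did not. Etv4 lies at -2.37, Dusp6, Dusp4 and Spry4 lie below -1, and Dusp10 and Dusp16 lie above 0.

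Within the set the log2 fold changes thus ran from -2.37 (Etv4) to -0.15 (Spred2), and 4 of the 10 genes (Etv4, Dusp6, Dusp4 and Spry4) had one of -1 or lower. The high glucose samples resembled one another: averaged over the 10 genes, the log2 CPM lay -0.86, -0.91 and -0.92 from the normal glucose mean in replicates 1, 2 and 3. The normal glucose samples lay at -0.078, 0.060 and 0.017 on that scale. In each high glucose sample, the same 9 of the 10 genes were below all normal glucose samples. Of all genes tested, 21.3% had all 3 high glucose samples there. Since the members were chosen on this contrast, nothing is read from this count. The biological coefficient of variation, the spread between replicates beyond counting error, was 5.13% to 8.67% over the 10 genes, and for 7 of them it was below the trend for genes of their abundance.

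To compare levels between genes, CPM were divided by the summed length of each gene's exons. On this scale (CPM per kb) Spry2 was by far the most abundant in normal glucose, at 64.3 ± 2.13, followed by Spred1 at 15.2 ± 1.07 (SD, n = 3). A middle group followed in which the ranges of mean ± SD of neighbouring genes overlapped, with Spry4 at 10.1 ± 0.622, Etv5 at 9.64 ± 0.319, Spred2 at 9.17 ± 1.15, Dusp6 at 9.16 ± 0.300, Dusp4 at 8.38 ± 0.902 and Spry1 at 8.07 ± 0.212. Etv1 at 3.46 ± 0.395 and Etv4 at 3.19 ± 0.0787 came last, and their ranges of mean ± SD overlapped too. Etv1 has 13.3 kb of annotated exon over 13 transcripts, and divided by its longest transcript (6.58 kb) it stood at 6.99 CPM per kb, with Etv4 at 4.13 still the lowest. In high glucose, Spry2 and Spred1 remained the highest at 40.9 and 12.8 CPM per kb, and Etv4 was the lowest at 0.617 CPM per kb.

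Summed over each family, the PEA3 factors went from 16.3 ± 0.773 to 9.63 ± 0.264 CPM per kb, a change of -40.8%. Etv5 had the largest share of this sum, 59.2% ± 0.935 in normal and 69.4% ± 0.186 in high glucose, or 47.3% ± 1.21 and 55.5% ± 0.192 when levels were divided by the longest transcript instead. Etv4 made up 19.6% ± 0.506 of the PEA3 level in normal glucose and 6.40% ± 0.404 in high glucose, and 19.6% and 6.43% by the longest transcript. The Sprouty sum changed by -39.0%, from 82.5 ± 2.23 to 50.3 ± 1.01 CPM per kb, with Spry2 making up 78.0% and 81.3% of it. For the Spred pair the change was -13.3%, from 24.3 ± 1.98 to 21.1 ± 0.753 CPM per kb. The ERK phosphatase pair showed the largest change of the 4 sums, -58.9%, from 17.5 ± 1.18 to 7.21 ± 0.422 CPM per kb, with Dusp4 at 47.7% ± 2.03 and 50.5% ± 0.582 of it.

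**Figure D3:**
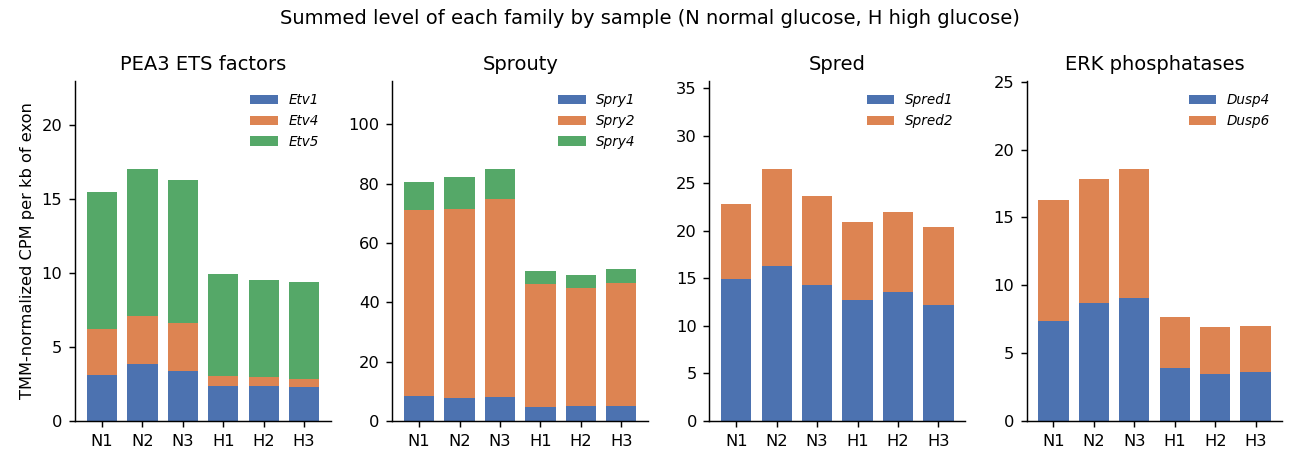
Summed level of each of the 4 families in every sample, as TMM-normalized CPM per kb of exon (vertical axes, from 0), with N for normal and H for high glucose samples and colours for the genes. The Etv4 segment shrinks from 3.10 to 3.24 in the N samples to 0.564 to 0.675 in the H samples, while Etv5 and Spry2 fill most of their columns throughout.

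The genes whose profile over the 6 samples was closest to that of Etv4 were Cd53, Serpinb9b, Mcpt8, Fam198b and Cck, by the root mean square difference of centred log2 CPM among 12432 genes. That difference was 0.0550 for Cd53 and 0.308 for Cck. Cd53 itself went from 13.9 to 2.78 CPM. For the mean profile of the 10 genes the closest were Bub1b, Racgap1, Gpnmb, Cdca5 and Tnfrsf23, with differences of 0.0227 to 0.0410. With 6 samples in 2 groups, closeness on this measure mostly reflects a similar log2 fold change, here -0.96 to -0.83. That is the contrast on which the members were chosen, so shared regulation is not read from it. Bub1b and Racgap1 act in mitosis and cytokinesis. A list of 18 G2/M genes, written with earlier results of these data known, was lower in high glucose throughout. In the edgeR fit 18 of 18 were called lower, against 14.5% of all genes tested, and the median log2 fold change of the 18 was -1.1. Their summed level was 399 to 406 CPM in normal and 196 to 198 CPM in high glucose. Whether fewer dividing cells had a part in the values of the PEA3 factors and inhibitors was not tested.

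The relatives of the 10 genes were mixed. These are family genes left out of a choice made on this same contrast, so they are no outside comparison. Spred3 was called lower, going from 23.4 ± 1.10 to 16.3 ± 2.11 CPM (log2 fold change -0.52, standard error 0.089, adjusted P = 0.00139 in edgeR's quasi-likelihood test). Spry3 was not analysed here. Of 8 further MAP kinase phosphatase genes 7 were tested, of which 2 were called lower and 2 higher, with a median log2 fold change of -0.24, and Dusp2 had 0 to 13 counts in any sample. Dusp1, an immediate early nuclear phosphatase, went from 71.3 ± 4.46 to 56.3 ± 4.05 CPM (log2 fold change -0.34, adjusted P = 0.00352 in edgeR), and Dusp5, a nuclear phosphatase specific for ERK, from 1.87 ± 0.118 to 1.34 ± 0.136 CPM (-0.48, adjusted P = 0.0137). Dusp7, the closest in kind to Dusp6 as a cytoplasmic ERK phosphatase, stood at 52.2 ± 0.504 and 48.3 ± 3.08 CPM and did not pass (-0.11, adjusted P = 0.175 in edgeR). With library size alone Dusp7 was called lower (-0.23). Dusp8 and Dusp9 had log2 fold changes of -0.24 and -0.36 and did not pass either, although Dusp9 did without normal glucose replicate 2 (-0.50) and with library size alone (-0.47). Dusp10 and Dusp16, which act mainly on the stress kinases JNK and p38, were called higher by 0.25 and 0.27 on the log2 scale (adjusted P = 0.0231 and 0.0149 in edgeR). These calls were lost in 7 and 4 of 13 alternative fits. Among them were, for Dusp10, the fits without normal glucose replicate 2 (0.20) or high glucose replicate 1, 2 or 3 (0.26, 0.24 and 0.21) and, for Dusp16, those without normal glucose replicate 3 (0.27) or high glucose replicate 2 (0.21). With library size alone the 7 phosphatase genes gave 4 lower and 0 higher.

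Other ETS factors were called higher or not called. Of 23 such genes 15 were tested, 8 (53.3%) were called higher and 0 lower in edgeR, and their median log2 fold change was 0.26. Over all genes tested 16.9% were called higher and 14.5% lower. Ets1 was the 1 gene lower at an unadjusted P under 0.05 and in DESeq2, and with library size alone 2 were called lower and 3 higher. Ets2, a widely expressed factor that ERK phosphorylates, rose from 40.2 ± 1.29 to 60.1 ± 0.951 CPM (log2 fold change 0.58, adjusted P = 1.38e-05 in edgeR). Elf4 and Etv3 rose by 0.36 and 0.31 (adjusted P = 0.00204 and 0.00592 in edgeR), although Etv3 was not called when scaled by library size alone. Erg, an endothelial ETS factor, had only 5, 8 and 2 counts in normal and 14, 15 and 12 in high glucose. Its call (log2 fold change 1.45, adjusted P = 0.0453 in edgeR) was lost in 10 of 12 alternative fits, including each fit without 1 sample other than normal glucose replicate 2 (1.09 to 1.54).

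Over the relatives and 5 further lists of pathway genes together, 162 genes were listed and 146 tested, of which 32 (21.9%) were called lower and 49 (33.6%) higher, with a median log2 fold change of 0.050. Over all genes tested these shares were 14.5% and 16.9%. Library size alone as the scale moved the median of all genes by -0.115 on the log2 scale and gave 52 lower and 31 higher pathway genes. These lists were written with earlier results of the data known.

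Among receptors and ligands upstream of the pathway more genes were called higher than lower, as also over all genes tested (16.9% and 14.5%). The shares called higher and lower were 33.3% and 14.3% of receptors and 44.0% and 20.0% of ligands. Of 24 receptor tyrosine kinase genes 21 were tested, 3 were called lower and 7 higher, with a median of 0.13 (6 and 7 with library size alone). Ntrk2, the receptor for brain-derived neurotrophic factor, rose from 78.3 ± 5.31 to 281 ± 5.24 CPM (log2 fold change 1.84, adjusted P = 3.82e-08 in edgeR), and Tek and Fgfr2 rose by 0.66 and 0.56. Flt1, a VEGF receptor, fell by 0.53 on the log2 scale. Fgfr1, the most abundant fibroblast growth factor receptor here at 507 ± 17.6 and 549 ± 2.43 CPM, was not called (log2 fold change 0.11, or -0.0010 with library size alone). Kdr, the main VEGF receptor, was not called either (0.15). Among ligands, 25 of 28 were tested, 5 were called lower and 11 higher, with a median of 0.079 that was -0.037 with library size alone (8 lower and 10 higher). On the log2 scale Igf1, Gas6 and Fgf18 rose by 1.05, 0.94 and 0.87. Fgf1, a broad ligand of fibroblast growth factor receptors, fell by 0.94. Both Fgf1 and Fgf18 were scarce, at 3.1 and 1.29 CPM in normal glucose, where the tested ligands together summed to 2380 to 2420 CPM.

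Of the 27 cascade genes from adaptors to kinases, 3 were called lower and 9 higher, with a median of 0.054, which was -0.060 with library size alone (8 lower and 5 higher). Mapk3, which encodes ERK1, stood at 125 ± 4.75 CPM in normal and at 130 ± 3.48 CPM in high glucose. Its log2 fold change of 0.054 was not called in edgeR (adjusted P = 0.464) and was -0.060 with library size alone. Map2k1, which encodes MEK1, was called lower by a small amount (-0.22, adjusted P = 0.00919 in edgeR), a call lost without high glucose replicate 3 (-0.21), whereas Map2k2 was not called (-0.17). Map2k2 was called lower in 4 alternative fits, with upper quartile scaling (-0.22), library size alone (-0.29), DESeq2 (-0.18) and without normal glucose replicate 2 (-0.25). The scaffold Ksr1 rose by 0.86 and the kinase Braf by 0.46, and the RAS relative Rras2 fell by 0.78 on the log2 scale. Transcript levels say nothing of the phosphorylation of these kinases.

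Inhibitors of RAS-ERK signalling outside the Sprouty, Spred and phosphatase families moved in both directions. Of 22 such genes, all tested, 3 were called lower and 8 higher, with a median of 0.091 that was -0.024 with library size alone (6 lower and 4 higher). Lrig3, the inhibitor of cytokine signalling Socs1 and the RAS GTPase activator Rasal2 were called higher, with log2 fold changes of 0.53, 0.52 and 0.51. Rasa1, another RAS GTPase activator, fell by 0.44.

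Other genes known to respond to ERK were more often called lower than higher. Of 28 such genes 15 (53.6%) were called lower and 4 (14.3%) higher, with a median log2 fold change of -0.19. Over all genes tested 14.5% were called lower and 16.9% higher. With library size alone 17 of the 28 were called lower and 2 higher, with a median of -0.31. Ccnd1, which encodes the G1 cyclin D1, fell from 168 ± 6.65 to 63.5 ± 1.42 CPM (log2 fold change -1.40, adjusted P = 5.57e-08 in edgeR). Egr2 fell by 1.32 and Hmga2, a chromatin protein of growing cells, by 1.24 on the log2 scale. The immediate early genes differed among themselves: Fos fell by 0.58 (34.2 ± 2.36 to 22.9 ± 1.77 CPM), while Egr1 stood at 79.3 ± 4.69 and 81.7 ± 7.88 CPM and was not called (log2 fold change 0.045, but -0.070 with library size alone and -0.037 without high glucose replicate 1). Myc was called lower at -0.19 (adjusted P = 0.0271 in edgeR), a call lost without normal glucose replicate 3 (-0.17), high glucose replicate 1 (-0.19) or high glucose replicate 2 (-0.19).

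A signature of MAPK pathway activity that is used in tumours holds 10 genes, 6 of which are described above (Spry2, Spry4, Dusp4, Dusp6, Etv4 and Etv5). Of the 4 others, Ccnd1, Epha2 and Phlda1 were called lower, at -1.40, -0.53 and -0.18, while Epha4, an ephrin receptor, was called higher. Epha4 rose from 30.2 ± 2.02 to 75.6 ± 0.581 CPM (log2 fold change 1.32, adjusted P = 1.52e-07 in edgeR), opposite to the other 9 genes of the signature. Phlda1 lost its call without normal glucose replicate 3 (-0.16), high glucose replicate 2 (-0.20) or high glucose replicate 3 (-0.19).

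**Figure D4:**
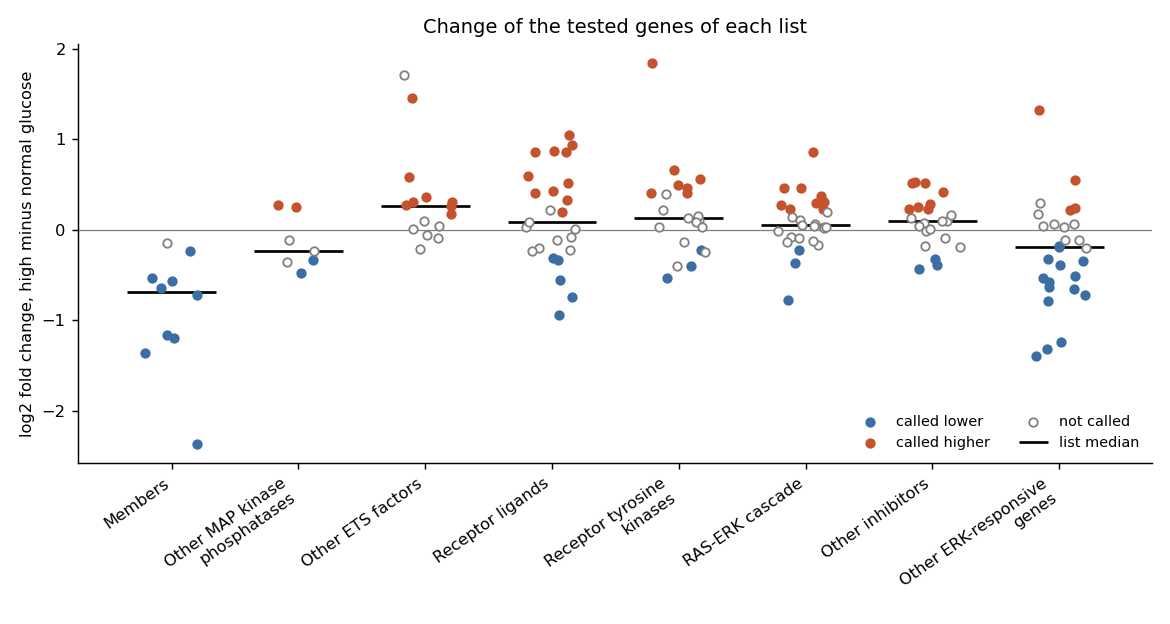
Log2 fold change, high minus normal glucose (vertical axis), of every tested gene of the members and of 7 lists of relatives and pathway genes, coloured by call, with list medians as black lines and points spread sideways only for legibility. The median is -0.69 for the members, which were chosen on this contrast, -0.24 for other MAP kinase phosphatases, 0.26 for other ETS factors and -0.19 for other ERK-responsive genes, with the remaining 4 between 0.054 and 0.13.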

How the data were processed

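Raw counts per Ensembl gene were deposited by the authors as 1 table of 6 samples, made by trimming (Trimmomatic), alignment to GRCm38 (mm10) with HISAT2 and counting with StringTie, with versions not given in the sources used here. The labels name TRIzol extraction and the DNBSeq platform. Column names (Control, Hi-Glu and a number) were matched to the labels' groups and replicates. Of the identifiers, 346 had no symbol (0.034% of counts). Counts were fitted with edgeR 4.0.16 (R 4.3.3): filterByExpr (minimum count 10, total 15), TMM, glmQLFit and glmQLFTest without covariates, and Benjamini-Hochberg adjustment over 19015 genes at 0.05, checked on simulated counts. Errors of fold changes are the log2 fold change over the root of F. With 3 samples against 3, an exact permutation test cannot go below 0.1. Loci and exon lengths are from GENCODE vM21. The 10 members and all lists were chosen with earlier results of these data known. Named were the members, tested relatives, up to 4 called genes of each pathway list with the largest absolute change, Egr1, Fos, Myc, Ccnd1, Phlda1, Epha2, Epha4, Mapk3, Map2k1, Map2k2, Kdr and Fgfr1, the highest and lowest marker of each list, and the 5 genes closest in profile to Etv4 and to the members' mean (mean log2 CPM of at least 1); some genes the rule names are not reported here. DESeq2 1.42.0, other scalings, filters and thresholds, halved counts, a replicate block and leaving out each sample were tried.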

Additional observations from a re-analysis of the deposited data

How the results depend on the processing

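Of the 10 members, 8 had the same direction and call in all 13 alternative fits and 0 reversed. Spred1 and Spred2 are described above. Among 41 other named genes, 28 kept both and 3 changed sign in some fit, each with a value near 0. With library size alone these were Egr1 (-0.070), Mapk3 (-0.060) and Fgfr1 (-0.0010), and when 1 sample was left out Egr1 (-0.037 to 0.10, negative without high glucose replicate 1). Library size alone gave 4884 genes lower and 1819 higher, and 52 and 31 pathway genes. An adjusted P under 0.01 left 1671 and 1946 genes, and an absolute log2 fold change of at least 1 left 542 and 395 genes, 3 and 4 pathway genes, and 4 members, all lower. Leaving out 1 sample gave 2048 to 3065 genes lower and 1988 to 3149 genes higher. The lowest counts were 2048 lower and 1988 higher without high glucose replicate 3, and 2097 and 2010 without high glucose replicate 1. Fewer samples enter those fits.

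Under the replicate block the log2 fold change was -2.37 for Etv4, -1.36 for Dusp6, -1.16 for Spry4 and -0.24 for Spred1, with 9 members, 2418 genes lower and 2909 higher. Same-numbered samples did not deviate together (correlations -0.0248, 0.00377 and 0.0127), and the labels give them only a number in common. Whether they shared an isolation or a day was not tested. The block changed no call of a member and, among the other named genes, that of Erg (adjusted P = 0.0576 in edgeR). Counting error at this depth is small for the members other than Etv4, which had 1102 or more counts in every sample. It weighs more for Etv4, with 221 to 297 counts in high glucose. The number of samples also limits the precision.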
